A study of Mus musculus with 8 samples.

Results

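Immunoglobulin transcripts were measured in whole mouse hippocampi by polyA-RNA sequencing, and 9 genes of this kind are described here out of 40659 genes in the count table. Igkj1, Igkc and Igkv17-127 are the joining, constant and variable parts of the kappa light chain. Ighm, Ighg2b, Ighg2c and Igha are heavy chain constant genes for IgM, IgG and IgA, and Ighv3-1 is a heavy chain variable segment. Jchain encodes the joining chain that links antibodies of the IgM and IgA classes into polymers. The genes were picked by name, with earlier results from these same libraries known. Igkj1 was the only gene that edgeR's quasi-likelihood test called between the groups, so the group values of the 9 genes are a description and support nothing.

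An antibody is built from paired heavy and light chains. In each developing B cell a variable and a joining segment of the kappa locus on chromosome 6 are cut and joined (with a diversity segment in between for the heavy chain locus on chromosome 12), and splicing attaches the product to a constant region. A B cell and its daughters therefore use 1 rearrangement, whereas constant regions are shared by many clones. Plasma cells, the end stage of this lineage, secrete antibody and carry far more immunoglobulin RNA than resting B cells do, while the healthy brain holds few of either.

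The 8 male C57BL/6JRj mice received a recombinant adeno-associated virus (rAAV) into the dorsal and ventral hippocampus at 7 to 8 weeks of age. In 4 mice, hp708, the virus carried a hairpin for miR-708-5p, and in 4 mice, hpCTL, a control hairpin. Both viruses expressed EGFP with the hairpin from the neuronal human synapsin promoter, both groups had the same surgery, and uninjected mice were not analysed here. Hippocampi were collected 4 weeks after injection, with a tissue age of 12 to 13 weeks in the labels. Each library comes from 1 mouse and held 22606824 to 28462428 counts. Mir708 had 0 counts in all 8 polyA libraries, so overexpression was not checked here. The neuronal genes on the list used to check the tissue summed to between 5122 and 6028 CPM (counts scaled to the normalised library size) in the 8 mice. The library labelled hp708 replicate 1 comes from animal 1602, which the source data of the study's qPCR list as hpCTL. It is kept in its labelled group, and most group differences and list counts below are also given without it.

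The joining segments of the kappa locus are shown first because the gene called between the groups, Igkj1, is one of them. On GRCm39 they lie within the same locus on the plus strand, Igkj1 at chr6:70699546-70699583 and Igkj5 at chr6:70700870-70700911. Capitals mark the letters TTCGG, which Igkj3 lacks.
Igkj1: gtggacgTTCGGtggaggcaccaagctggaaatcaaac
Igkj2: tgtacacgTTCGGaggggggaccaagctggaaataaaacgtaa
Igkj3: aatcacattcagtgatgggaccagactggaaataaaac
Igkj4: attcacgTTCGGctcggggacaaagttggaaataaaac
Igkj5: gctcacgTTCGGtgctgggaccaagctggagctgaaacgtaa
Igkj1 is 38 bases long. Its sequence occurs 1 time in the genome. Aligned at the letters TTC, Igkj1 and Igkj2 were identical at 27 of 31 bases, and the least alike pair, Igkj3 and Igkj4, at 22 of 31. A count on a joining segment is a read that overlaps these few bases on its way from a variable segment to Igkc, so a level per length of so short a gene has little meaning.

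The variable segments carry their own promoters. A known element of these is the octamer ATGCAAAT, to which POU2F factors bind together with their coactivator Pou2af1. The windows below show it in capitals for both variable segments, on GRCm39 and read along each gene, at chr6:67838006-67838105 for Igkv17-127 and at chr12:113928493-113928592, minus strand, for Ighv3-1.
Igkv17-127: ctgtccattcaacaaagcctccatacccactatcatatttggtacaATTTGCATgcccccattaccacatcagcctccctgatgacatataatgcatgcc
Ighv3-1: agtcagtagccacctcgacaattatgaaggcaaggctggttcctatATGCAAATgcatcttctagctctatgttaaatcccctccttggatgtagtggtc
The octamer began 85 bases before the annotated start of Igkv17-127 and 108 bases before that of Ighv3-1. In windows of 300 bases, 250 before to 50 after the start, it was found on either strand in 168 of 221 variable segments (76.0%). Over 32851 RefSeq promoter windows of the same length, on GRCm38.p6, the share was 1.74%. The 91 Ighv windows with the octamer held it as ATGCAAAT along the gene, whereas the 73 Igkv windows with it held the reverse complement ATTTGCAT, 2 of them with both. The RefSeq window of Jchain did not hold these letters.

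Immunoglobulin genes together took up 0.449% to 1.23% of all counts in a hippocampus. Summed over 267 immunoglobulin genes and Jchain, the level was 4562, 7977, 12320 and 8738 CPM in hpCTL replicates 1 to 4. It was 4653, 9906, 4714 and 7189 CPM in hp708 replicates 1 to 4. The lowest 3 mice were hpCTL 1, hp708 1 and hp708 3, so both groups held low and high mice and they overlapped over most of their range. The medians were 8357 CPM in hpCTL and 5952 CPM in hp708, a ratio of 0.712, and 0.860 without hp708 replicate 1. The highest mouse had 2.702 times the level of the lowest. The 9 genes accounted for 61.7% to 77.4% of these counts. In whole tissue, fewer cells of a type and less RNA per cell cannot be told apart.

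Igkc (chr6:70703419-70703950), the constant region of the kappa chain, had the highest level of these genes. The hpCTL mice had 1380, 2265, 3512 and 2246 CPM and the hp708 mice 1300, 2732, 1414 and 1906 CPM. The mean was 2351 ± 878 CPM in hpCTL and 1838 ± 651 CPM in hp708 (SD, n = 4 each). The groups overlapped, and the mouse with the lowest value was an hp708 mouse and the one with the highest an hpCTL mouse. The log2 fold change was -0.62 (SE 0.15), and -0.32 without hp708 replicate 1. Per kilobase of exon its median over the 8 mice was 3902 CPM. On that scale Ighm had 555, Ighg2c 443, Igha 297, Ighg2b 131 and Jchain 116 CPM, and Igkv17-127 and Ighv3-1 had 22.9 and 0.937 CPM. Ranges over the mice overlapped between neighbours in this order, except that Igkc, at 2444 CPM per kilobase or more, lay above the highest value of Ighm, 1046.

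Igkj1 was measured at 42.2, 103, 117 and 123 CPM in hpCTL and at 41.5, 104, 42.9 and 73.6 CPM in hp708. Replicate 1 of hpCTL sat with hp708 replicates 1 and 3 near 42 CPM, and hp708 replicate 2 with the 3 higher hpCTL mice. The means were 96.4 ± 37.1 and 65.6 ± 29.8 CPM (SD, n = 4 each). The fitted log2 fold change, hp708 over hpCTL, was -0.90 (SE 0.06) with 3 surrogate variables, which are estimated hidden factors. The edgeR quasi-likelihood test gave it an FDR of 0.016, which is the value that singled it out. Its SE was worked back from that same test and adds nothing to it. The SD of its log2 CPM over the 8 mice was 0.70, higher than in 94.58% of tested genes. Without surrogate variables its log2 fold change was -0.56 and the call was lost, and without hp708 replicate 1 it was -0.51 and not called either.

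Igkv17-127 (chr6:67838137-67838643) was the 1 gene of the 9 with a positive log2 fold change. It had 3.78, 5.07, 9.31 and 4.21 CPM in hpCTL and 7.43, 9.04, 40.0 and 25.3 CPM in hp708. The last 2 hp708 mice stood above all hpCTL mice, and the other two lay within the hpCTL range. The log2 fold change was 1.53 (SE 0.23). It was 1.75 without hp708 replicate 1, and Igkv17-127 was then the 1 gene of the 9 that the quasi-likelihood test called, where 0.321% of all tested genes were called. Of the 50-base stretches in Igkv17-127, 57.2% also occurred in Igkv17-121, so reads may be split between these segments and their counts are uncertain. Igkv17-121, named for this reason after its values were seen, had 3.53, 5.64, 4.27 and 24.7 CPM in hpCTL and 4.60, 0.304, 5.03 and 24.2 CPM in hp708.

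**Figure D1:**
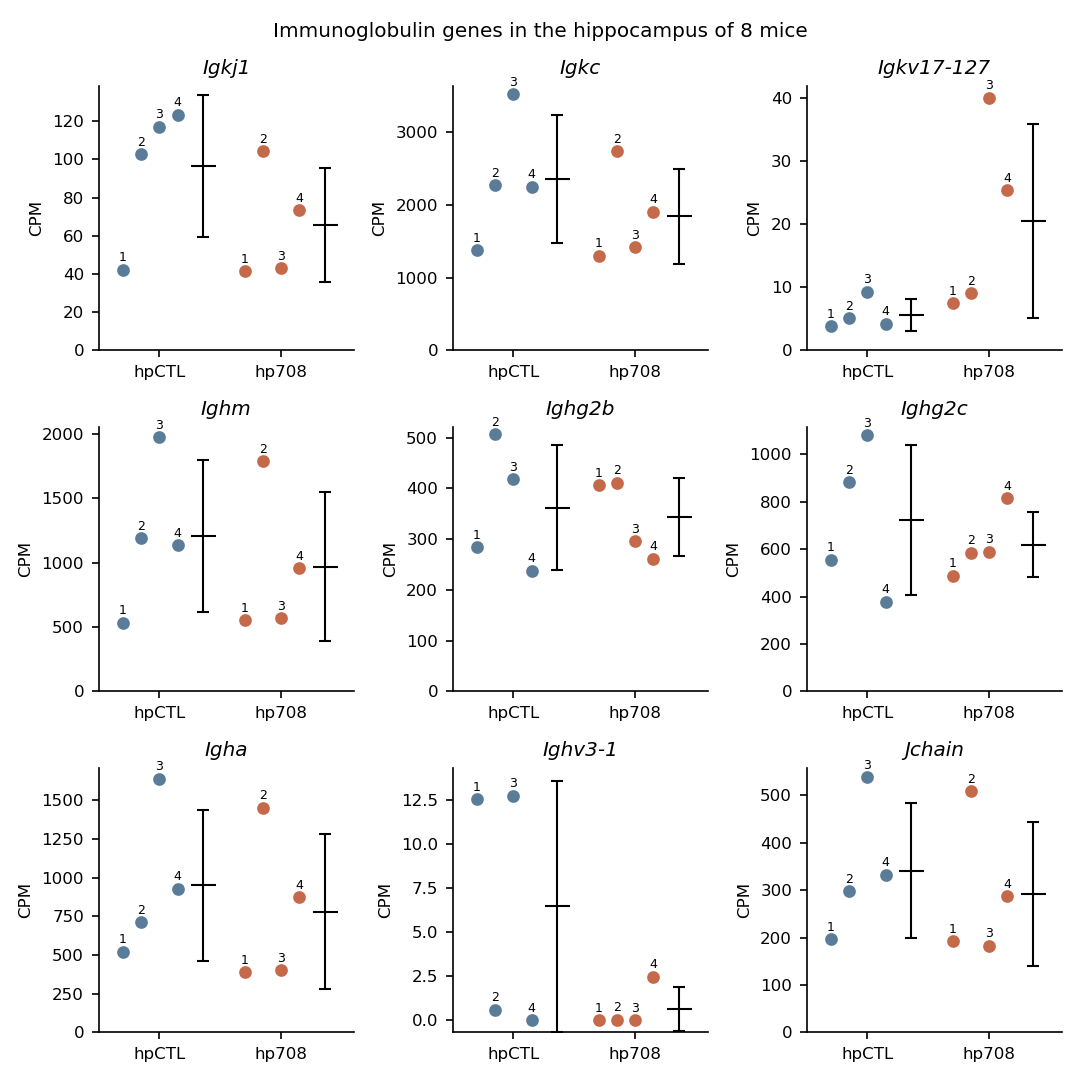
CPM of the 9 genes in each mouse (y axis, linear), by group, with points numbered by replicate and black bars for the mean and SD of 4 mice. Igkc, Ighm, Igha, Jchain and Igkj1 share the same low mice, hpCTL 1 (1380 CPM for Igkc), hp708 1 (1300) and hp708 3 (1414), whereas Igkv17-127 peaks in hp708 3 at 40.0 CPM.

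The constant genes of IgM and IgA ran with Igkc. Ighm (chr12:113382178-113386350) had 533, 1190, 1972 and 1137 CPM in hpCTL and 555, 1787, 569 and 958 CPM in hp708. Igha (chr12:113218450-113223856) had 521, 713, 1639 and 929 CPM in hpCTL and 389, 1451, 404 and 873 CPM in hp708. For both genes hpCTL 3 and hp708 2 were the highest mice, and the groups overlapped. The log2 fold changes were -0.78 (SE 0.19) for Ighm and -0.85 (SE 0.23) for Igha. Without hp708 replicate 1 they were -0.33 and -0.15.

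Jchain (chr5:88667668-88675750) had 197, 298, 538 and 332 CPM in hpCTL and 192, 509, 183 and 287 CPM in hp708. Its order over the mice was close to that of Ighm. Per 100 counts of Ighm and Igha together, Jchain had between 14.9 and 20.3 counts in every mouse, with a median of 15.9 in hpCTL and 17.2 in hp708. The log2 fold change of Jchain was -0.61 (SE 0.19), and -0.19 without hp708 replicate 1.

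The IgG2 genes had another order over the mice. Ighg2b (chr12:113266585-113271553) had 285, 508, 419 and 238 CPM in hpCTL and 407, 412, 296 and 262 CPM in hp708, with a log2 fold change of -0.13 (SE 0.26). With a mouse left out and surrogate variables it ran from -0.48 (without hpCTL replicate 4) to 0.08 (without hpCTL replicate 2). It was -0.33 without hp708 replicate 1. With a mouse left out and no surrogate variables it ran from -0.23 to 0.13. Ighg2c (chr12:113248945-113252552), the IgG2 gene of the C57BL/6 background that stands in place of Ighg2a, had 556, 882, 1080 and 378 CPM in hpCTL and 489, 585, 590 and 814 CPM in hp708. Its log2 fold change was -0.32 (SE 0.24), -0.56 and -0.18 without those hpCTL mice, and -0.19 without hp708 replicate 1. In neither gene did the group means differ by more than the SD of either group.

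Ighv3-1 (chr12:113928008-113928438) was close to absent in some mice and not in others. It had 351, 14, 310 and 0 counts in hpCTL and 0, 1, 0 and 60 counts in hp708, which is 12.53, 0.612, 12.7 and 0 CPM and then 0, 0.0435, 0 and 2.48 CPM. A count of 0 allows up to 3 counts, from counting error alone. Within hpCTL the values thus ran from 0 to 12.7 CPM, and the group ranges overlapped. The fitted log2 fold change was -8.41 with surrogate variables and -3.36 without them. With a mouse left out and surrogate variables it ran from -22.37 (without hp708 replicate 4) to -4.39 (without hp708 replicate 1), so its size was not read as a fold.

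Of the 9 genes, 9 passed the filter on low counts, 1 was called by the quasi-likelihood test at an FDR below 0.05 and 8 had a negative log2 fold change. The background is 0.0058% of 17252 tested genes called, a single gene, which is Igkj1 itself. The median log2 fold change of the 9 genes was -0.62, and that of all tested genes -0.01. In none of the 9 did the values of the groups fail to overlap, against 1.51% of all tested genes. The likelihood ratio test called 6 of the 9 (Igkj1, Igkc, Igkv17-127, Ighm, Igha and Ighv3-1), where it called 0.736% of all tested genes. DESeq2 called Igkj1 and Igkv17-127 (0.539% of all), the newer quasi-likelihood test Igkj1 and Ighv3-1 (0.0174% of all), and without surrogate variables 0 of the 9 were called. Since this contrast chose the genes, nothing is read from these counts. Without surrogate variables the median of the 9 was -0.29. Without hp708 replicate 1 it was -0.32 with surrogate variables and -0.12 with none. Leaving out hpCTL replicate 3, the mouse with the highest immunoglobulin level, and using no surrogate variables gave 0.02, with 3 of 9 genes below 0.

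**Figure D2:**
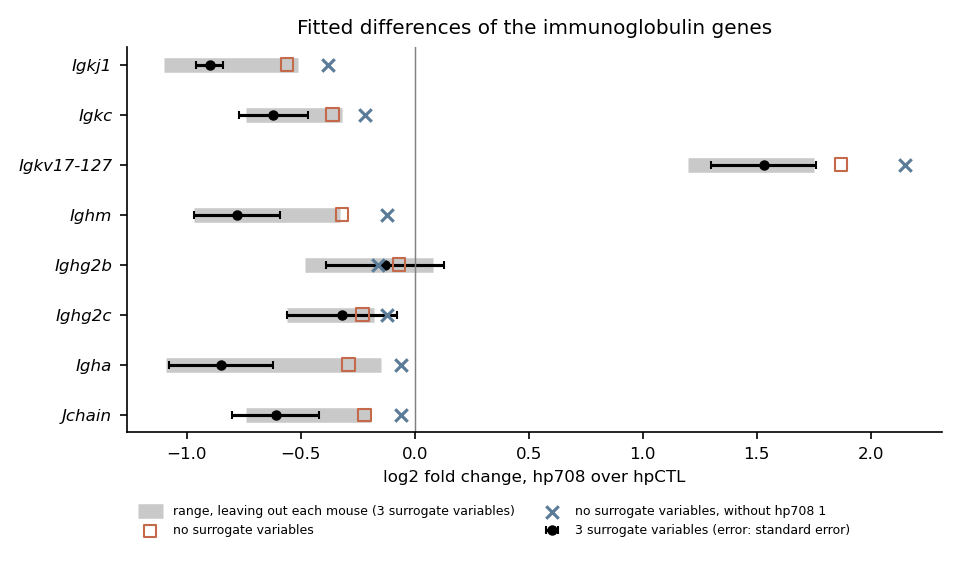
Fitted log2 fold changes, hp708 over hpCTL (x axis), for 8 of the genes (Ighv3-1, at -8.41, is off this scale). Black points with SE are the fit with 3 surrogate variables, and grey bars the range of the 8 such fits that leave out a mouse. Squares are without surrogate variables, and crosses without both these and hp708 1. For Igkc, Ighm, Igha and Jchain the crosses lie between -0.22 and -0.06, nearer to 0 than the black points at -0.62, -0.78, -0.85 and -0.61.

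The other immunoglobulin genes are those left over when the 9 were picked with earlier results known. They were read in the same mice and are not an independent set. Of 259 of them in the count table, 112 were tested and 0 were called by the quasi-likelihood test at an FDR below 0.05, against 0.0058% of all tested genes. At an unadjusted p below 0.05 there were 27, of which 21 had lower and 6 higher values in hp708, where 7.7% of all tested genes had such a p and 4.87% were lower with it. There were 18 without surrogate variables, a fit in which 312 of all 17252 tested genes had such a p. Without hp708 replicate 1 there were 45 of 125, a fit in which 12.2% of all tested genes had such a p. The likelihood ratio test called 10 (0.736% of all tested genes), DESeq2 called 5 (0.539%), and the quasi-likelihood test in its newer form called 1, Igkv3-2 (0.0174%). Their median log2 fold change was -0.58, and -0.06 without surrogate variables, where 59 of 112 were below 0. It was -0.34 without hp708 replicate 1, and 0.05 without both that mouse and surrogate variables. In the fit without that mouse and with surrogate variables, the quasi-likelihood test called 6 of 125, 2 of them lower in hp708, against 0.321% of all tested genes in that fit. The groups did not overlap for 2 of the 112, Igkv13-85 and Ighv1-55, both lower in hp708, against 1.51% of all genes.

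The shares of the heavy chain classes varied over the mice, and a difference between the groups was not tested. Ighm made up 27.8% to 41.7% of the counts on heavy chain constant genes, with a median of 31.5% in hpCTL and 30.7% in hp708. Igha took 19.5% to 33.9%, Ighg2c 9.69% to 31.6% and Ighg2b 6.10% to 20.3%. With counts divided by exon length, the medians were 36.1% for Ighg2c, 32.4% for Ighm, 19.4% for Igha and 8.80% for Ighg2b. Ighd, the class of mature resting B cells together with IgM, stayed at 0.0417% or less of the counts in every mouse.

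Ighg1, another IgG gene, took up 30.9% of the heavy chain constant counts in hpCTL replicate 4 (Wilson 95% interval 30.6% to 31.2%, for counting error alone). In the other hpCTL mice the share was 0.0131%, 1.07% and 0.0573%, and in hp708 it was 6.77%, 0.620%, 0.228% and 4.77%. That is 1205 CPM in hpCTL 4 against 0.250 CPM in hpCTL 1. Its fitted log2 fold change was 2.65 (SE 0.93), not called, while the group means lay the other way, at 311 CPM in hpCTL and 78.6 CPM in hp708. Ighe, of the IgE class, had 222 counts in hpCTL 4, 19 in hpCTL 3 and 2 or fewer in the other mice. Ighg3 ran from 0.198% in hpCTL 4 to 5.24% in hpCTL 2.

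The light chains were almost all kappa. Lambda constant genes held 0.897% to 2.88% of the light chain constant counts, with a median of 1.29% in hpCTL and 1.69% in hp708. The highest share was that of hpCTL replicate 4, in which Iglc3 alone reached 53.1 CPM, against 3.499 to 6.909 CPM in the other 7 mice. The rest of the lambda counts came from Iglc1, at 5.67 to 35.4 CPM, and Iglc2, at 3.62 to 14.7 CPM. Iglc4 stayed below 0.05 CPM.

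**Figure D3:**
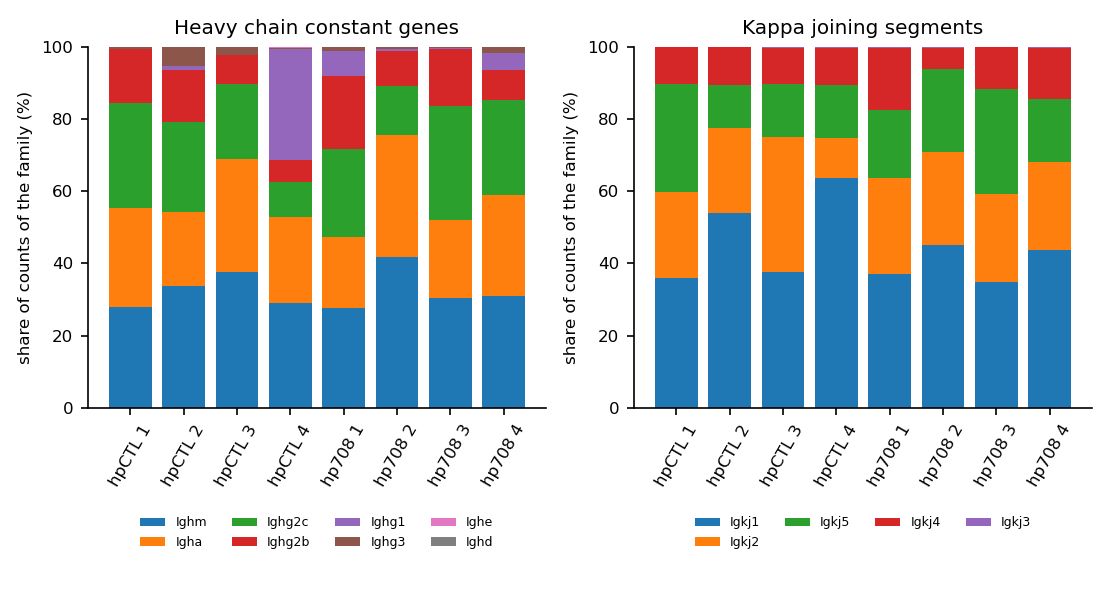
Shares of counts in each mouse, in percent of all counts on heavy chain constant genes (left) and on kappa joining segments (right). Ighg1 fills 30.9% of the heavy chain bar in hpCTL 4, the mouse in which Igkj1 also has its highest share of the joining segments, 63.6%.

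The total of the joining segments followed Igkc closely, while Igkj1 did not hold a fixed part of it. The 5 kappa joining segments together had 8.40 to 8.87 counts per 100 counts of Igkc in the 8 mice. Igkj1 alone had 3.04 to 5.49, and its share of the joining segment counts in hpCTL replicates 1 to 4 was 35.9%, 54.0%, 37.6% and 63.6%. The hp708 mice had 37.0%, 45.04%, 34.8% and 43.7%. The 2 highest shares were in hpCTL and the lowest in hp708, and the groups overlapped. The shares depend only on counts from the same library and so not on its scaling. Igkj2 held 11.0% to 37.3%, Igkj5 12.0% to 30.0%, Igkj4 6.04% to 17.2% and Igkj3, the segment without the letters TTCGG, 0.369% or less.

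The other 4 kappa joining segments had smaller fitted differences than Igkj1, and the quasi-likelihood test called none of them. The log2 fold changes were -0.58 (SE 0.45) for Igkj2, -0.72 (SE 0.67) for Igkj3, -0.26 (SE 0.19) for Igkj4 and -0.15 (SE 0.22) for Igkj5. Igkj2 reached 116 CPM in hpCTL 3 and lay between 21.4 and 59.8 CPM in the other mice. A difference between Igkj1 and these segments was not tested. On the heavy chain locus, Ighj1 held 5.50% to 69.6% of the joining segment counts, with the highest share again in hpCTL 4 (96.1 CPM) and the next in hpCTL 3 (49.9 CPM). Its log2 fold change was -3.03 (SE 0.87), not called by the quasi-likelihood test but called by the likelihood ratio test and, without hpCTL replicate 2, by the quasi-likelihood test as well.

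A few variable segments were abundant in every mouse, and many were abundant in a single one. Among the 10 Ighv genes with most counts in a mouse, Ighv5-4 and Ighv9-3 appeared in all 8 mice. Among the Igkv genes, Igkv1-110, Igkv1-135 and Igkv10-96 did. The top Ighv gene took 16.9% to 27.9% of the counts on its family, and the top Igkv gene 16.2% to 34.3%. In all, 35 different Ighv genes were among the top 10 of some mouse, 21 of them in 1 mouse only. For Igkv the numbers were 35 and 15, and any pair of mice shared 2 to 7 of their top 10 Ighv genes and 3 to 6 of their top 10 Igkv genes.

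Igkv1-135 had the most Igkv counts in 6 of 8 mice and ranged from 94.2 CPM in hpCTL 1 to 360 CPM in hp708 2. Igkv10-96 led in hpCTL 2 and hpCTL 3, at 246 and 539 CPM, and had 75.7 to 143 CPM in the other mice. Of the heavy chain segments, Ighv5-4 led in 3 mice, with 147 CPM in hp708 2 and in hp708 4 and 76.2 CPM in hpCTL 1. Ighv9-3 led in hpCTL 3 at 229 CPM and in hp708 1 at 87.6 CPM, and Ighv6-3 in hpCTL 2 and hp708 3 at 125 and 64.5 CPM. Between 10.5% and 34.5% of the 50-base stretches of these segments and Igkv1-110 also occurred in another variable segment, so reads may be split between segments and their counts are uncertain.

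Ighv9-2 led in hpCTL replicate 4 only. It had 203 CPM there, 27.9% of the Ighv counts of that mouse, and 6.44 CPM or less in the others. Igkv15-103, chosen after its values were seen, had 269 CPM in the same mouse and at most 31.7 CPM elsewhere. Its 50-base stretches occurred in no other variable segment. The mouse with these values is also the one with the high Ighg1, Igkj1, Ighj1 and Iglc3 values above.

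The spread of the variable segments over mice was far from that of other genes. The median SD of log2 CPM over the 8 mice was 2.14 for the 98 tested variable segments, 0.78 for constant genes and 0.18 for all tested genes. Among variable segments with at least 500 counts in all, 20 of 39 Ighv genes and 20 of 45 Igkv genes had more than 50% of their summed CPM in 1 mouse, where an even spread gives 12.5%. The same held for 37 of 13875 tested genes of that depth (0.267%), and 36 of these 37 were among the 97 tested immunoglobulin genes of that depth. Tested genes had passed the filter on low counts, which removes genes with counts in too few mice. That filter was not applied to the Ighv and Igkv genes counted here, so their shares and the 0.267% are not alike. Likewise, 78 of the 100 tested genes with the largest SD were immunoglobulin genes, which make up 0.696% of the genes tested. The 40 variable segments with over 50% in 1 mouse came from every mouse except hpCTL 1, with 11 of the 40 from hpCTL 3, 7 from hp708 2 and 3 to 6 from each of the others.

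Beside Ighv9-2, with 95.98% of its summed CPM in hpCTL 4, the segments most confined to a mouse, also chosen after their values were seen, belonged to both groups. Igkv8-28 had 98.2% of its summed CPM in hp708 1 (40.3 CPM), Ighv1-66 97.8% in hp708 2 (46.3 CPM) and Ighv1-22 97.2% in hpCTL 3 (85.2 CPM). In hp708 4 it was Ighv1-78, with 95.4% (22.1 CPM). For these 4 the next mouse had less than 1 CPM.

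**Figure D4:**
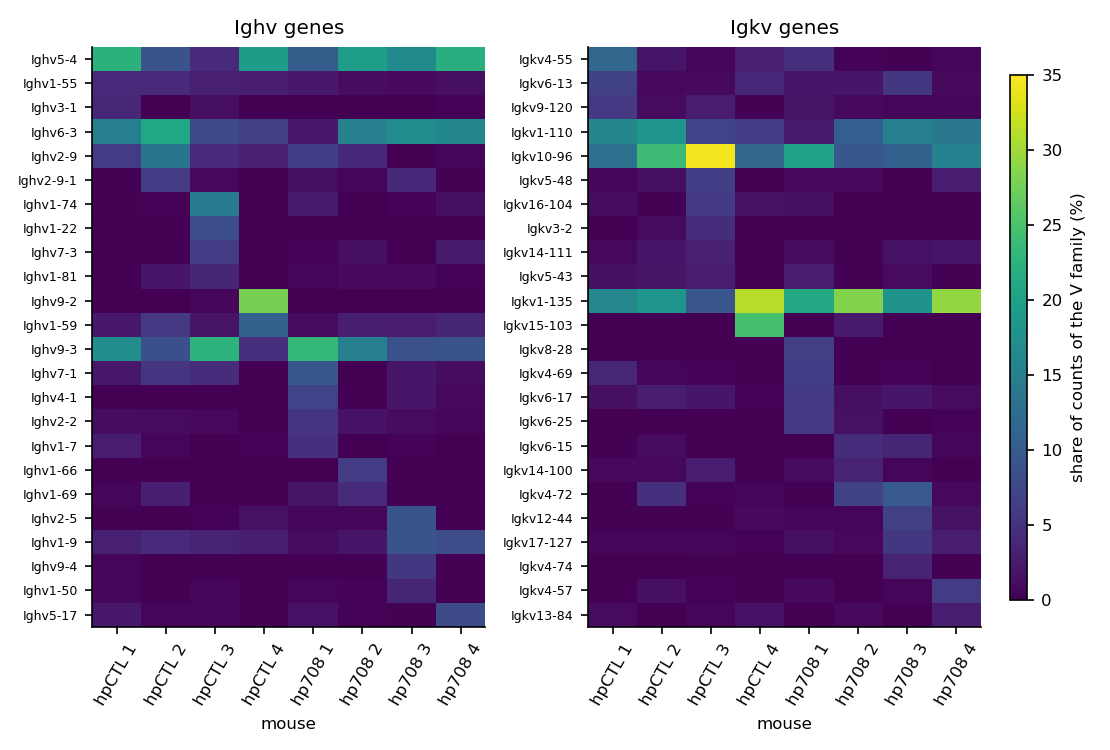
Share of each mouse's Ighv (left) and Igkv (right) counts, in percent (colour, 0 to 35), for the 24 genes of each family with the highest share in any mouse, ordered by the mouse of that highest share. Ighv5-4, Ighv9-3, Igkv1-135, Igkv1-110 and Igkv10-96 show in all 8 mice, whereas Ighv9-2 (27.9%) and Igkv15-103 (24.8%) are bright in hpCTL 4 alone.

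The genes whose pattern over the mice was most like that of Igkc included known plasma cell genes. Over 8 libraries, outside the immunoglobulin loci, the highest Pearson r of log2 CPM with Igkc was that of the predicted gene Gm45867 (0.99, at 2.14 to 3.53 CPM). It was followed by Derl3 (0.98), which acts in the disposal of misfolded secretory proteins, and by Jchain (0.97), itself one of the 9 genes. Next were Lax1 (0.97), an adaptor in lymphocyte signalling, and the linker histone H1f4 (0.97). Spearman's rho for these 5 was 0.90 to 0.98, and r without the 2 mice farthest from the median of Igkc was 0.94 to 0.97. Among the 9 genes, r with Igkc was 0.99 for Ighm, 0.95 for Igha and 0.92 for Igkj1. It was 0.50 for Ighg2c, 0.35 for Ighg2b, 0.25 for Ighv3-1 and -0.14 for Igkv17-127, and that of Ighg2c became 0.02 without the 2 farthest mice. These are 8 points from the same libraries with the same scaling, and they are given as a description.

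For Igkj1 the nearest genes were others. They were Treml2 (r = 0.98), a receptor of myeloid and B cells, and Gbp11 (0.98) and Ifi44 (0.97), both induced by interferon. Then came Hltf (0.97), a DNA helicase, and Cd69 (0.97), an early activation marker of lymphocytes. Ifi44 had 3.18, 10.6, 11.6 and 12.1 CPM in hpCTL and 3.41, 10.6, 4.52 and 8.92 CPM in hp708. Its lowest 3 mice were again hpCTL 1, hp708 1 and hp708 3.

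Every plasma cell gene listed had counts in all 8 mice, and so did every B cell gene listed except Fcer2a. Some counts were low, such as 4 for Ms4a1 and 2 for Pax5 in hpCTL 1. The mean log2 CPM of the plasma cell list had r of 0.98 with Igkc, and that of the B cell list 0.70. Mzb1, a chaperone for IgM assembly, had 6.69 to 17.2 CPM, and r with Igkc was 0.94. Sdc1, the surface marker CD138, had 2.64 to 6.28 CPM (r = 0.78). Prdm1, the transcription factor that directs plasma cell development, had 1.78 to 5.13 CPM (r = 0.84). Tnfrsf17, the survival receptor BCMA, had 0.384 to 2.17 CPM (r = 0.86), and Pou2af1, the coactivator at octamers, 2.65 to 13.2 CPM (r = 0.95). Xbp1 had r of 0.75. The T cell genes Trac and Cd3e had r of 0.80 and 0.81, above those of Sdc1 and Xbp1. On the B cell list, Ms4a1, encoding CD20, had 0.143 to 1.69 CPM, with r of 0.25. Cd79a, the signalling chain that B cells share with some plasma cells, had 2.13 to 6.78 CPM and r of 0.85. Cd22, Cd72 and Blnk, receptors and an adaptor of B cell signalling, had 1.43 to 6.81, 1.67 to 6.44 and 6.85 to 18.5 CPM. Cd72 was highest in hpCTL 3, as Igkc was, whereas Cd22 and Blnk were highest in hp708 4. Of 18 B cell genes, Blk, Cr2, Fcer2a, Vpreb3 and Cxcr5 did not pass the filter.

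**Figure D5:**
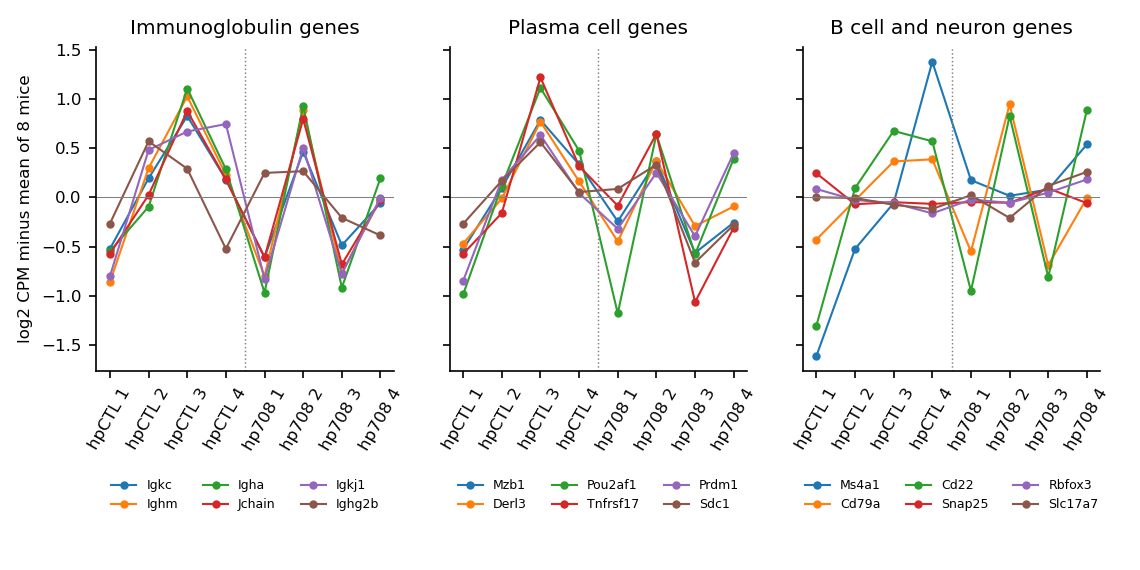
Log2 CPM minus its mean over 8 mice (y axis) for immunoglobulin, plasma cell, and B cell and neuron genes in each mouse (x axis), where lines only join the points of a gene. Derl3, Mzb1 and Pou2af1 follow Igkc (r = 0.98, 0.94 and 0.95) with low points in hpCTL 1, hp708 1 and hp708 3, beside which Mzb1 is as low in hp708 4 (8.30 CPM, against 8.37 in hp708 1), and Cd79a and Cd22 are low in the same mice, whereas Ms4a1 (r = 0.25) and the neuronal genes do not follow it.

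None of the 19 plasma cell genes was called between the groups by the quasi-likelihood test at an FDR below 0.05. At an unadjusted p below 0.05 there were 7, all lower in hp708, against 4.87% of all tested genes. Of the 19, 18 had a negative log2 fold change, against 53.19% of all tested genes, with a median of -0.38. Examples are Mzb1 at -0.57 (SE 0.20), Pou2af1 at -0.87 (SE 0.19) and Xbp1, the transcription factor of the secretory programme, at -0.30 (SE 0.10). Xbp1, Sec11c, Txndc5 and Edem1, the most abundant genes on the list, serve protein secretion in many cell types. Without surrogate variables the median was -0.21 and 0 of 19 had an unadjusted p below 0.05. Without hp708 replicate 1 the median was -0.08 with 14 of 19 below 0, and 0 of 19 had such a p. For the B cell list, 0 of 13 tested genes were called and 5 had an unadjusted p below 0.05, all lower in hp708, against the same 4.87%. Their median was -0.32, and 0.02 without surrogate variables. Without hp708 replicate 1 it was 0.03, with 1 of 15 tested genes at an unadjusted p below 0.05.

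Genes that sense or recruit antibody and its producers showed a like pattern. Of 10 Fc receptor and antibody transport genes, 7 were tested, 0 were called and 6 had an unadjusted p below 0.05, all lower in hp708, against 4.87% of all tested genes. All 7 had negative log2 fold changes, with a median of -0.46. The median was -0.05 without hp708 replicate 1 and -0.19 without surrogate variables, and in both fits 0 of the 7 had such a p. Fcgr3, an activating IgG receptor of microglia and macrophages, had 28.4, 31.8, 37.0 and 35.8 CPM in hpCTL and 19.4, 39.0, 21.9 and 34.9 CPM in hp708. Fcgrt, the receptor that recycles IgG, varied less, from 15.8 to 25.04 CPM. Pigr, which carries polymeric IgA and IgM across epithelia, did not pass the filter.

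Of the 12 tested genes for recruitment and survival of the B lineage, 0 were called and 5 had an unadjusted p below 0.05 (7.7% of all tested genes did), with a median log2 fold change of -0.37. The median was -0.08 without hp708 replicate 1, with 1 gene at such a p, and -0.12 without surrogate variables, with 0. Cxcl9, a chemokine for activated T cells and plasma cells, had 10.6, 36.2, 42.6 and 46.2 CPM in hpCTL and 6.74, 30.8, 8.65 and 43.8 CPM in hp708. The T cell chemokine Ccl5 had 10.3, 24.8, 39.5 and 36.6 CPM in hpCTL and 3.15, 27.6, 8.53 and 37.2 CPM in hp708. Both were low in hpCTL 1, hp708 1 and hp708 3, and high in the 5 other mice. Cxcl12, which holds plasma cells in their niche, stayed between 56.2 and 80.1 CPM and had a log2 fold change of 0.01 (SE 0.08).

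Other immune lists varied over the mice much as Igkc did, with r of their mean log2 CPM with Igkc between 0.78 and 0.88. The summed level of the 7 MHC class II genes, which present antigen to T cells, was 389, 919, 1182 and 1707 CPM in hpCTL and 332, 1194, 411 and 1461 CPM in hp708. That of the 15 T cell genes was 33.7, 60.6, 89.8 and 59.8 CPM in hpCTL and 29.4, 65.2, 27.1 and 99.9 CPM in hp708. The 12 interferon response genes summed to 196, 414, 455 and 504 CPM in hpCTL and 182, 446, 216 and 432 CPM in hp708. In each of these lists the lowest 3 mice were hpCTL 1, hp708 1 and hp708 3. The 8 classical complement genes ran from 573 to 1143 CPM in hpCTL and from 510 to 1293 CPM in hp708. The 8 microglial genes ran from 542 to 700 and from 491 to 695 CPM. Their part in the immunoglobulin values was not tested.

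Between the groups, 0 genes of these 5 lists were called. Unadjusted p below 0.05 was reached by 5 of 7 MHC class II, 8 of 15 T cell, 12 of 12 interferon response, 4 of 8 complement and 4 of 8 microglial genes, all lower in hp708, against 4.87% of all tested genes. The median log2 fold changes were -0.89, -0.67, -0.67, -0.48 and -0.20. Over the first 4 of these lists, the plasma cell, B cell and Fc receptor lists and the list for recruitment and survival, 93 genes were tested. The likelihood ratio test and DESeq2 each called 15 of them, all lower in hp708, against 0.736% and 0.539% of all tested genes. The newer quasi-likelihood test called 0 of them. Without surrogate variables the 5 medians were -0.30, -0.18, -0.24, -0.18 and -0.09, and 0 genes of the 5 lists had an unadjusted p below 0.05. Without hp708 replicate 1 they were -0.06, -0.05, -0.11, 0.05 and 0.03, and 1, 0, 4, 1 and 1 genes of the lists had such a p, against 12.2% of all tested genes in that fit.

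Markers of tissue next to the hippocampus did not run with the immunoglobulin genes. The 10 choroid plexus genes summed to 57.8, 1686, 158 and 2132 CPM in hpCTL and 3085, 4507, 115 and 182 CPM in hp708. Their r with Igkc was 0.20, and hp708 1, a mouse low in immunoglobulin, had the second highest level. Meningeal fibroblast genes summed to 117 to 375 CPM (r = 0.23) and red blood cell genes to 66.2 to 134 CPM (r = -0.11). The neuronal list had r of -0.33 and a median log2 fold change of 0.05. None of the 31 genes on these 4 lists was called by the quasi-likelihood test, and none had an unadjusted p below 0.05 with surrogate variables. Without hp708 replicate 1, 4 choroid plexus, 5 meningeal, 1 red blood cell and 2 neuronal genes had such a p, against 12.2% of all tested genes in that fit. The median of the choroid plexus list was 0.32 with all mice and -0.58 without hp708 replicate 1. With no surrogate variables it was 0.75 and 0.40.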

How the data were processed

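PolyA-RNA sequencing of 8 hippocampi was analysed. The authors mapped reads to GRCm39 with STAR 2.7.8a, counted them per gene with featureCounts 1.6.4 and deposited raw counts, without normalization. Strand and multi-mapping settings are not given in the sources used here, so reads of near-identical or overlapping genes may be split or lost. Symbols and immunoglobulin biotypes came from a later GENCODE release on the same build (39641 of 40659 identifiers matched).

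Genes were filtered with filterByExpr and tested over all 17252 kept genes with edgeR 4.0.16 (R 4.3.3), with TMM normalization, the quasi-likelihood test as in edgeR 3, 3 svaseq surrogate variables (sva 3.50.0) and Benjamini-Hochberg adjustment. The study's methods name the likelihood ratio test and its legend the quasi-likelihood model. DESeq2 1.42.0, other filters, the replicate block and leaving out each mouse were alternatives. CPM used TMM-scaled sizes of the filtered libraries. Log2 CPM added a prior count of 2. Each SE was worked back from the test, as the absolute log2 fold change divided by the square root of its F statistic. In a simulation with 17040 genes and 200 true changes, 125 of these were recovered, with 14 false calls. How the fit behaves where many genes vary together over the mice, as the immune lists do here, was not tested.

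The genes and lists were chosen with earlier results of these data known. Named are the 9 genes, all constant genes, the kappa joining segments, each mouse's top variable segments, the 5 genes most like Igkc and Igkj1, and from each list defining markers and up to 4 abundant genes. Others were named after their values were seen. Within the groups, no library was a copy of another (chi-square per degree of freedom 10.04 to 46.23). Values for pairs across the groups are not given. One listed marker gene is not reported here.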

Additional observations from a re-analysis of the deposited data

Results flagged for a closer look

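Within each group of 4 mice, 60 sets of values were checked for a single mouse far from the rest, and 2 stood out, where chance would give about 3. The share of Ighg1 among heavy chain constant counts was 30.87% in hpCTL replicate 4 and 0.0131% to 1.07% in the other 3 hpCTL mice. Ighv3-1 had 2.478 CPM in hp708 replicate 4 and 0 to 0.0435 CPM in the other 3 hp708 mice.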

How the results depend on the processing

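The count of genes called over all tested genes, 1 as reported, was 0 without surrogate variables (312 with an unadjusted p below 0.05), 0 with at least 10 counts required in every library (907) and 0 with surrogate variables from CPM (2098), an alternative chosen after seeing the data. It was 127 with the likelihood ratio test, 93 with DESeq2, 3 with the newer quasi-likelihood test, 12 with no filter and 0 to 56 with a mouse left out, the 56 without hp708 replicate 1. The immunoglobulin genes other than the 9, with 0 called, had 10, 5, 1 and 4 called by the likelihood ratio test, DESeq2, the newer quasi-likelihood test and no filter, and 0 to 6 with a mouse left out. The immune and B lineage lists, with 0 called, had 15, 15 and 4 called by the likelihood ratio test, DESeq2 and no filter, and 0 to 1 with a mouse left out (Ccl5, without hpCTL replicate 4). The cause was not tested. The median of the 9 genes, -0.62, was -0.28 to -0.62 over the settings. The -0.28 is a median of 8 genes, since Ighv3-1 was dropped where at least 10 counts were required in every library. With a mouse left out the median was -0.74 to 0.02 (-0.12 without hp708 replicate 1 and -0.13 without hp708 replicate 3, both with no surrogate variables). The ratio of summed immunoglobulin levels was 0.564 to 0.860 with a mouse left out. Igkj1 was below 0 in all 9 other settings (-0.90 to -0.55) and called in 5. It ranged from -1.10 to -0.51 in the 8 fits with surrogate variables that left out a mouse, 4 of which called it. With a mouse left out and no surrogate variables it ranged from -0.87 to -0.38, and 0 of these fits called it.

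Replicate numbers did not pair the mice (correlations of deviations -0.041 to 0.018). With the replicate block and no surrogate variables, 1 gene was called, which was Ighv9-2 and not Igkj1, so 1 of the immunoglobulin genes other than the 9, and the median of the 9 was -0.33. With 4 mice a group, 1 mouse can set a variable segment's mean.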
